A study of Mus musculus with 2 samples.

Results

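Sirt1 and 9 genes whose products make or break down its cofactor NAD were followed in medullary thymic epithelial cells (mTEC) of the mouse. The 10 genes are Sirt1, Nampt, Nmnat1, Nmnat2, Nmnat3, Nadsyn1, Qprt, Cd38, Bst1 and Nnmt, out of 23411 genes in the deposited tables. They were chosen by function, with earlier results of these data known, and found by the gene symbol of their RefSeq accession. Each gene was read from its most counted transcript. The study compared 2 poly-A RNA libraries, 1 of MHC-II high and 1 of MHC-II low mTEC, sorted from the thymus of 3 pooled B6 mice with no further genotype or treatment named. The high fraction is the more mature one and holds most cells that express Aire, the regulator that lets mTEC transcribe tissue antigens, and the series title links Sirt1 to the tolerance that Aire brings about.

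Sirt1 removes acetyl groups from proteins and in each cycle splits a molecule of NAD, releasing nicotinamide. Cells rebuild NAD from nicotinamide through Nampt and the Nmnat enzymes, from nicotinic acid through Naprt, the Nmnat enzymes and Nadsyn1, or from tryptophan along the kynurenine pathway, which Qprt links to the same end steps. Cd38 and Bst1 cleave NAD, and Nnmt methylates nicotinamide so that it leaves the cycle.

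There was no second library in either group, so each difference is between these 2 libraries and has no replicate check. Levels are given as CPM, read counts divided by a library total scaled with TMM, a method that takes most genes not to differ. Each ratio, high library over low library, has an exact 95% Clopper-Pearson interval, which covers counting error only and no spread between samples. PCR reads carry no molecular identifiers, so copies count as separate reads, and the interval can be too narrow even for counting error. A gene was called higher or lower in the high library when its whole interval lay beyond 2-fold. In these bulk samples, fewer cells of a type and less RNA per cell cannot be told apart.

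The read totals over genes were 138368550 for MHC-II high and 56077464 for MHC-II low. Of 17438 genes with a mean of at least 1 CPM, 14.5% were called higher and 10.9% lower in the high library, so that 57.0% of the calls were higher. That share depended on the scaling, being 72.9% with unscaled totals, 74.3% when scaled on Epcam, Krt8 and Krt18, 41.9% when scaled on reference genes and 93.9% with the totals behind the deposited RPKM, and it was 42.6% with no minimum. The epithelial marker gene Epcam was at 621 CPM (MHC-II high) and 586 CPM (MHC-II low), and all 6 listed markers of mature mTEC were called higher in the high library (1555 and 306 CPM in sum). Of 8 listed thymic epithelial genes 1 was called higher and 2 lower, with sums of 5692 and 13237 CPM. Genes listed as markers of other cells had reads in both libraries. Since mTEC transcribe tissue antigens themselves, such reads can come from other cells or from mTEC, which was not tested. None of the listed markers was at 0 reads. Their summed levels in the high and low library were 452 and 114 CPM for 9 dendritic cell and macrophage genes (5 called higher, 0 lower), 166 and 24.5 CPM for 4 granulocyte genes (3 higher), 30.1 and 24.1 CPM for 5 B cell genes (2 higher), 47.2 and 70.7 CPM for 10 T cell and thymocyte genes (1 higher, 2 lower), 62.1 and 434 CPM for 6 endothelial genes (6 lower), 190 and 1088 CPM for 7 fibroblast genes (5 lower) and 60.3 and 2141 CPM for 4 erythroid genes (2 lower).

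All 10 genes passed the minimum, each with at least 1 CPM in both libraries. Sirt1 and Nmnat2 were called higher in the high library and Nmnat3 was called lower, which makes 2 of 10 higher and 1 of 10 lower, against 14.5% and 10.9% of all genes. The median log2 ratio over the 10 genes was 0.21, and over all genes past the minimum it was -0.01. The plot of CPM by gene shows both libraries side by side.

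**Figure D1:**
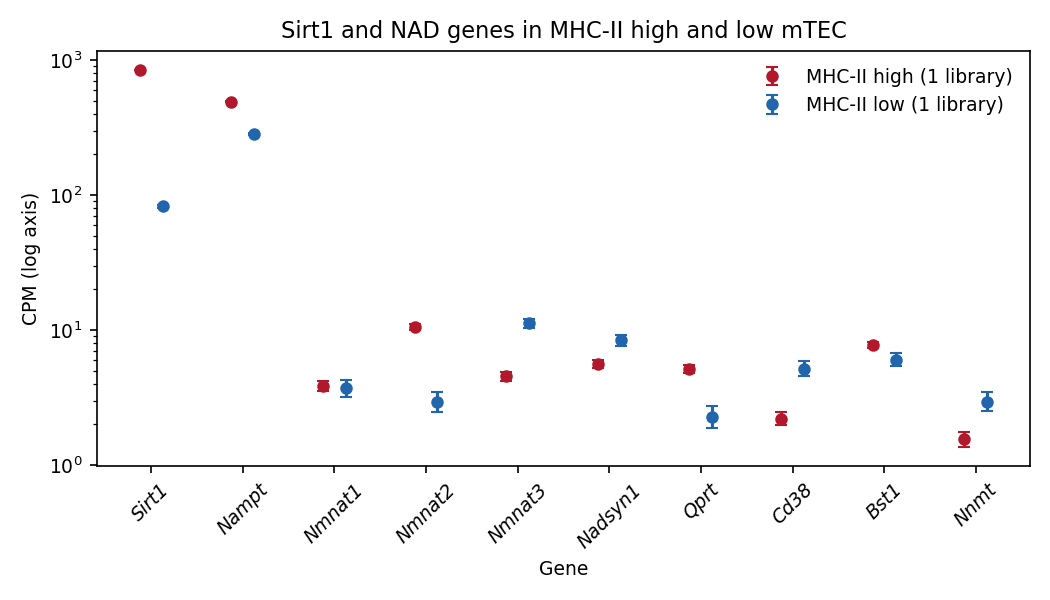
CPM on a log axis (vertical) for each of the 10 genes (horizontal) in the MHC-II high library (red) and the MHC-II low library (blue), with exact 95% Poisson intervals of the reads as bars. Sirt1 and Nampt lie above 80 CPM in both libraries and the other 8 genes below 12 CPM, and Nmnat3, Nadsyn1, Cd38 and Nnmt lie lower in the high library.

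The promoters of the 3 called genes are shown because these are the members whose intervals lay beyond 2-fold with TMM totals. RefSeq promoter sequences of build GRCm38.p6 were found for 8 of the 10 genes, all but Bst1 and Nnmt. Each is 300 bases long and ends 50 bases after the annotated start, and the capitals mark matches to any searched motif on either strand. Sirt1 is at chr10:63338986-63339285 on the minus strand, Nmnat2 at chr1:152954851-152955150 and Nmnat3 at chr9:98296320-98296619, both on the plus strand.
Sirt1: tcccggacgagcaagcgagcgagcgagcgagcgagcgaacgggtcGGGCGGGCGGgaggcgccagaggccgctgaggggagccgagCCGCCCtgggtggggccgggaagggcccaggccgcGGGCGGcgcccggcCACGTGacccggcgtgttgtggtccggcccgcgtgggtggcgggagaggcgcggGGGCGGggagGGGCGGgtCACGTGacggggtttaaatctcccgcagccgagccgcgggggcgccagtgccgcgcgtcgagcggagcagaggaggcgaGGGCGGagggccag
Nmnat2: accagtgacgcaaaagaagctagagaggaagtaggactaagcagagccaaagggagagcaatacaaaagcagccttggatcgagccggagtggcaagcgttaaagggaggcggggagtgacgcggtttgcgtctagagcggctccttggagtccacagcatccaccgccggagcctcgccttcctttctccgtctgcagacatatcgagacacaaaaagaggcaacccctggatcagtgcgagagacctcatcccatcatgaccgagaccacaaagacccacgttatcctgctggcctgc
Nmnat3: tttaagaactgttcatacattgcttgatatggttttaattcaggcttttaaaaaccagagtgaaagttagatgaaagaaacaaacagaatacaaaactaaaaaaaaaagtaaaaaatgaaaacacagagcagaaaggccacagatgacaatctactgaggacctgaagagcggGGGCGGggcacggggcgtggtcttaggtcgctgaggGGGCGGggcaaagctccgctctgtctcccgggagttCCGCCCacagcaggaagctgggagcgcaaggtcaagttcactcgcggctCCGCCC

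The first motif searched was the GC box GGGCGG, which Sp factors bind. The others were the CCAAT box, the E-box CACGTG of the clock factors and Myc, the forkhead site TGTTTAC, the TATA box with the letters TATAAA, the E2F sites TTTCCCGC and TTTGGCGC, and the CRE, TGACGTCA. The Sirt1 window held 7 GC boxes, 2 of which overlap, and 2 E-boxes at positions -115 and -43 from the start. Among all 32817 promoters of this length, 35.6% held a GC box and 7.15% an E-box, 37.4% a CCAAT box, 13.6% the TATA letters, 3.65% the forkhead site, 1.79% the CRE and 1.07% and 0.515% the E2F sites. The Nmnat3 window held 4 GC boxes, and the Nmnat2 window held no searched motif. Of the other members, Nampt had 5 GC boxes, Nadsyn1 2, and Nmnat1 1 beside a CCAAT box in each of its 2 annotated windows, while Qprt and Cd38 had no match. The Sirt1 window was 79.0% G and C with 47 CpG dinucleotides, the Nmnat2 window 56.3% with 17 and the Nmnat3 window 49.0% with 13, while the medians over all promoters were 52.7% and 7. These are matches of letters, and no binding was measured here.

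Sirt1 had 129089 reads in MHC-II high and 4190 reads in MHC-II low mTEC, which is 845 and 82.5 CPM. The ratio was 10.2 (interval 9.92 to 10.6), and over the scalings tried it lay between 8.71 with reference genes and 20.5 with the totals behind the deposited RPKM. In the high library 68 genes past the minimum had a higher CPM than Sirt1, and in the low library 2567 did. A ratio at least as high as that of Sirt1 was found for 242 genes, and of these Ptgs2 alone was also at a higher CPM in the high library, with 1470 against 125 CPM. Ptgs2 encodes the inducible cyclooxygenase and was singled out after its values were seen. Per kilobase of transcript, 5 genes were above Sirt1 in both respects, namely Ptgs2, Aire, H2-Eb2, Csn2 and Calcb.

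The 5 named genes nearest to Sirt1 in the plane of the log2 CPM of the 2 libraries were H2-Eb2, Sspo, Plagl1, Csn2 and Fscn1, at distances of 0.20, 0.27, 0.31, 0.47 and 0.65. With only 2 points per gene, the distance says that level and ratio were alike. H2-Eb2, a gene of the MHC class II region, was at 800 and 72.9 CPM. Csn2, the milk casein gene, was at 792 and 59.9 CPM, and Fscn1, the actin-bundling fascin of mature dendritic cells and other cells, at 539 and 83.2 CPM. Dendritic cell and macrophage markers were also higher in the high library in sum (452 against 114 CPM), and 5 of 8 past the minimum were called higher. Lyz2 held 362 and 74.0 CPM of these sums, while Itgax was lower in the high library (1.90 and 3.19 CPM, not called). Whether such cells were present, and their part in the levels of the 5 genes, was not tested.

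**Figure D2:**
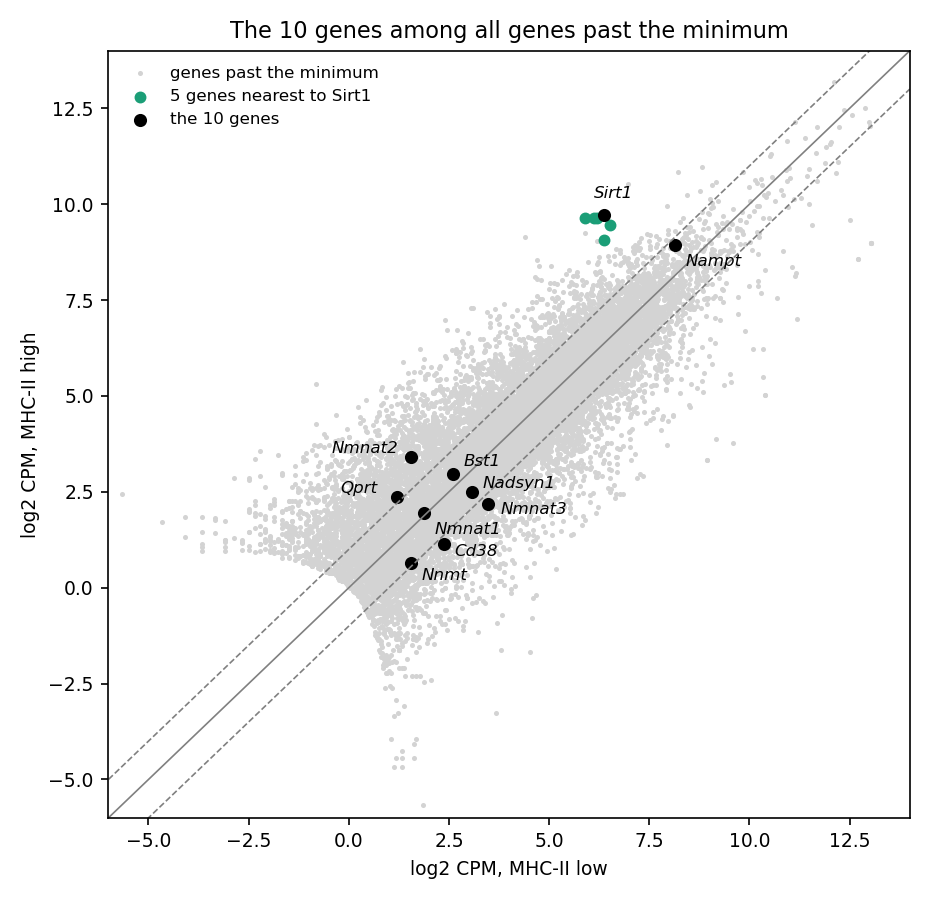
Log2 CPM in the MHC-II high library (vertical) against log2 CPM in the MHC-II low library (horizontal) for genes past the minimum with reads in both libraries (grey), the 10 genes (black, labelled) and the 5 genes nearest to Sirt1 (green). The solid line marks equal levels and the dashed lines 2-fold, and Sirt1 lies at the upper edge of the cloud while Nampt lies inside the 2-fold lines.

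Nampt, the enzyme that sets the pace of NAD salvage from nicotinamide, was abundant in both libraries, with 74997 reads (491 CPM) in MHC-II high and 14301 (282 CPM) in MHC-II low mTEC. Its ratio of 1.74 (interval 1.71 to 1.77) was above 1 and within 2-fold. It passed 2-fold with unscaled totals (2.13, from 2.09 to 2.16), when scaled on Epcam, Krt8 and Krt18 (2.17) and with the totals behind the deposited RPKM (3.49). The long noncoding gene Gdap10 overlaps Nampt and had 3330 and 550 reads. Without strand, reads where the genes overlap cannot be told apart.

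Per length, Sirt1 and Nampt stood in opposite order in the libraries. In the high library Sirt1 came first among the 10 genes with 216 CPM per kilobase and Nampt second with 108, while in the low library Nampt came first with 61.9 and Sirt1 second with 21.1. Among all 23411 genes, Sirt1 ranked 190 per length in MHC-II high and 3800 in MHC-II low mTEC, and Nampt 506 and 1135. For each Nampt read there were 1.72 Sirt1 reads in MHC-II high and 0.293 in MHC-II low mTEC, a 5.87-fold difference (exact conditional interval 5.67 to 6.09). A ratio of 2 genes within a library does not depend on how the libraries are scaled.

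The same within-library measure was taken against the other NAD genes. Sirt1 reads per Nmnat2 read were 2.85-fold higher in the high library (interval 2.39 to 3.38), and per Qprt read 4.55-fold higher (3.70 to 5.55), the smallest differences of the 9. The difference was 7.98-fold per read of Bst1, 9.85-fold for Nmnat1 and 15.2-fold for Nadsyn1. The largest differences were those for Nnmt (19.4-fold, 15.7 to 24.0), Cd38 (24.0-fold, 20.3 to 28.4) and Nmnat3 (25.2-fold, 22.4 to 28.3). All 9 intervals lay beyond 2-fold, which follows in part from the high ratio of Sirt1 that they share.

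The Nmnat enzymes make NAD or its acid form by adding the adenylyl group, Nmnat1 in the nucleus, Nmnat2 at the Golgi and in the cytosol, where it is known for keeping axons alive, and Nmnat3 in mitochondria and red blood cells. Nmnat2 and Nmnat3 differed in opposite directions. Nmnat2 had 1611 reads (10.5 CPM) in MHC-II high and 149 (2.93 CPM) in MHC-II low mTEC and was 3.59-fold higher in the high one (interval 3.04 to 4.28). Nmnat3 had 694 reads (4.54 CPM) and 568 (11.2 CPM) and was 2.46-fold lower in the high library (2.20 to 2.76). This call was lost with unscaled totals, when scaled on Epcam, Krt8 and Krt18 and with the totals behind the deposited RPKM, under which its log2 ratio was -1.01, -0.98 and -0.30. Nmnat1 was close to equal, at 3.85 and 3.70 CPM, a ratio of 1.04 (0.88 to 1.23) whose sign on the log2 scale turned with reference gene scaling (-0.18). The gene Lzic overlaps Nmnat1 and had 2970 and 1087 reads.

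Within the family, and so free of scaling, the makeup differed. Per kilobase Nmnat1 held 47.6% of the summed level of the 3 genes in MHC-II high and 40.0% in MHC-II low mTEC, Nmnat2 27.5% and 6.68%, and Nmnat3 24.8% and 53.3%. The Nmnat2 to Nmnat3 ratio was 8.84-fold higher in the high library (exact conditional interval 7.21 to 10.9). Erythroid (60.3 and 2141 CPM), endothelial (62.1 and 434 CPM) and fibroblast (190 and 1088 CPM) markers were also lower in the high library in sum, and their part in the level of Nmnat3 was not tested.

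In gene order, Herc4, a ubiquitin ligase gene, and Dnajc12, a cochaperone gene, flank Sirt1. Herc4 was at 53.4 and 40.3 CPM and Dnajc12 at 18.8 and 18.3 CPM, log2 ratios of 0.41 and 0.04, and neither was called.

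Qprt turns quinolinate, which forms from tryptophan along the kynurenine pathway, into a nucleotide. It had 785 reads (5.14 CPM) in MHC-II high and 116 (2.28 CPM) in MHC-II low mTEC. Its ratio of 2.25 had an interval of 1.85 to 2.76 that reached below 2-fold, and the call was made with TMM over all genes (2.44, from 2.01 to 2.99) and with 3 other scalings. Nadsyn1, which adds the amide group in the last step from nicotinic acid or quinolinate, had 862 reads (5.64 CPM) and 425 (8.37 CPM). Its log2 ratio was -0.57 and turned to 0.43 with the totals behind the deposited RPKM.

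Of the NAD-cleaving ectoenzymes, Cd38, which also makes cyclic ADP-ribose and is abundant on lymphocytes, had 337 reads (2.21 CPM) in MHC-II high and 263 (5.18 CPM) in MHC-II low mTEC. The ratio was 0.43 (interval 0.36 to 0.50), and the upper limit missed the 2-fold mark, which it passed with reference gene scaling. Its paralogue Bst1, known from bone marrow stroma and myeloid cells, had 1185 reads (7.75 CPM) and 307 (6.05 CPM), a ratio of 1.28 (1.13 to 1.46) that passed 2-fold with the totals behind the deposited RPKM (2.57). Within a library, Bst1 per Cd38 was 3.01-fold higher in the high one (exact conditional interval 2.44 to 3.71). Markers of T cells and thymocytes were lower in the high library in sum (47.2 and 70.7 CPM) and those of granulocytes higher (166 and 24.5 CPM), and their part in Cd38 and Bst1 was not tested.

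Nnmt, which consumes nicotinamide and is abundant in liver and stromal cells, had the fewest reads of the 10 genes in the high library, 238 (1.56 CPM) against 150 (2.95 CPM) in the low one. Its ratio was 0.53 (interval 0.43 to 0.65), a log2 ratio of -0.92 that turned to 0.08 with the totals behind the deposited RPKM. Fibroblast markers were lower in the high library too (190 and 1088 CPM in sum), and their part in the level of Nnmt was not tested.

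Below Sirt1 and Nampt, the order per length differed between the libraries. In the high library it ran Qprt, Nmnat1, Bst1, Nmnat2, Nadsyn1, Nmnat3, Nnmt and Cd38, from 4.29 to 0.736 CPM per kilobase. The Poisson intervals of Qprt and Nmnat1 overlapped, and those of Nmnat2, Nadsyn1 and Nmnat3 all overlapped each other. In the low library it ran Nmnat3, Nmnat1, Nadsyn1, Nnmt, Bst1, Qprt, Cd38 and Nmnat2, from 5.18 to 0.649 CPM per kilobase. There the intervals of Nmnat1, Nadsyn1 and Nnmt all overlapped each other, as did those of Nadsyn1, Nnmt and Bst1. Those of Qprt and Cd38 overlapped too. Nmnat2 came last per length in the low library and in place 6 in the high one.

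**Figure D3:**
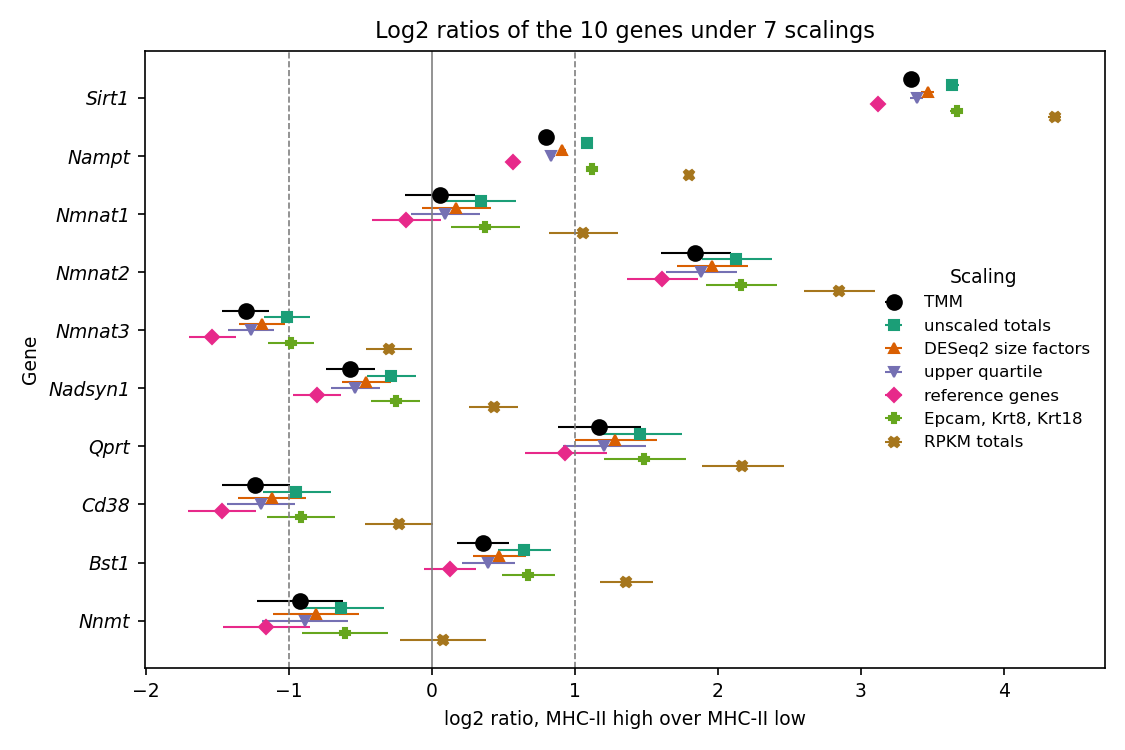
Log2 ratio, high library over low library (horizontal), for each of the 10 genes (vertical) under 7 scalings of the library totals, with 95% intervals of the reads as lines, and dashed lines at 2-fold. Sirt1 and Nmnat2 stay beyond the right dashed line under all 7, while Nadsyn1 and Nnmt cross 0 with the RPKM totals and Nmnat1 with reference genes.

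Genes of de novo synthesis from tryptophan were the next group described. Of 8 listed genes 7 passed the minimum, 5 were called higher in the high library and 0 lower, with a median log2 ratio of 2.31. Over all genes 14.5% were called higher and 10.9% lower. The list was chosen with earlier results of these data known, so the contrast is a description and no test. The count was 5 to 6 higher and 0 lower over the 7 other scalings, where 11.5% to 45.2% of all genes were called higher. At a minimum of 5 CPM, which Ido2 and Acmsd did not reach, 4 of 5 genes were called higher, against 12.3% of all genes. These 4, Tdo2, Ido1, Kmo and Kynu, were under 5 CPM in the low library. They passed that minimum by their level in the high library, so this count too is only a description. Tdo2 and Ido1 open the tryptophan ring. Tdo2, a liver enzyme, had 3640 reads (23.8 CPM) in MHC-II high and 85 (1.67 CPM) in MHC-II low mTEC and was 14.2-fold higher (interval 11.5 to 17.9). Ido1, which is induced by interferon in dendritic and other cells, was at 10.9 and 2.01 CPM (5.45-fold, 4.46 to 6.72), and its paralogue Ido2 at 2.68 and 0.808 CPM (3.31-fold, 2.40 to 4.69).

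Further down the pathway, Kmo hydroxylates kynurenine and Kynu cleaves it. Kynu was the most abundant of the 8, with 7235 reads (47.3 CPM) against 198 (3.90 CPM), and was 12.1-fold higher (interval 10.5 to 14.1). Kmo was at 12.5 and 2.52 CPM (4.96-fold, 4.14 to 5.98). Haao, whose product becomes quinolinate, stayed under the minimum with 74 and 37 reads, and Acmsd, which diverts the intermediate away from NAD, was at 2.07 and 0.926 CPM with an interval of 1.65 to 3.11. Afmid had a log2 ratio of -0.80. Ido2 and Acmsd were under 1 CPM in the low library and passed the minimum by their level in the high one, so the count and median that hold them are only a description. Dendritic cell and macrophage markers were also higher in the high library in sum (452 and 114 CPM, 5 of 8 past the minimum called higher). Lyz2 held 362 and 74.0 CPM of these sums. Itgax (1.90 and 3.19 CPM) and Siglech, under the minimum (0.844 and 1.06 CPM), were lower in the high library without a call. Whether such cells were present, and their part in the de novo group, was not tested.

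Of the 7 other genes of salvage and precursor entry, 6 passed the minimum. Of these, 1 was called higher and 0 lower, against 14.5% and 10.9% of all genes, and the median log2 ratio was -0.06. The called gene was Nmrk1, the kinase that lets nicotinamide riboside enter, with 4924 reads (32.2 CPM) against 358 (7.05 CPM), a ratio of 4.57 (interval 4.10 to 5.10). Naprt, which starts the route from nicotinic acid, was at 20.6 and 39.9 CPM (0.52, from 0.49 to 0.55), and its log2 ratio turned to 0.05 with the totals behind the deposited RPKM. With reference gene scaling Naprt was called lower (log2 ratio of -1.19), the 1 lower call of its list. Within a library, Nampt per Naprt was 3.38-fold higher in the high one (exact conditional interval 3.18 to 3.58). Pnp, the nucleoside phosphorylase, was at 77.0 and 95.6 CPM, and its log2 ratio of -0.31 turned positive with the RPKM totals and when scaled on Epcam, Krt8 and Krt18.

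Of 9 measured genes for NAD phosphorylation, repair, turnover and transport, 2 were called higher and 1 lower, with a median of 0.03. The shares over all genes were 14.5% higher and 10.9% lower. The NAD kinase gene Nadk was at 134 and 132 CPM, a ratio of 1.02 (interval 0.99 to 1.05), which fell below 1 with reference gene scaling (log2 ratio of -0.21). Slc25a51, the mitochondrial NAD carrier, was at 157 and 83.0 CPM (1.89, from 1.82 to 1.95, passing 2-fold with 3 other scalings), and Slc25a17, the peroxisomal carrier, at 69.0 and 81.4 CPM. Nudt12, a peroxisomal hydrolase of NADH, was 2.38-fold higher in the high library (2.08 to 2.75), a call lost with reference gene scaling (log2 ratio of 1.02). The aldehyde oxidase genes, whose products can oxidise nicotinamide derivatives, split, with Aox3 3.49-fold higher (2.95 to 4.17) and Aox1 2.81-fold lower in the high library (2.57 to 3.08). The Aox1 call was lost with the RPKM totals (log2 ratio of -0.49).

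Among 22 genes of ADP-ribosyl transferases and other NAD consumers, 3 were called higher and 5 lower, with a median of -0.28. Over all genes 14.5% were called higher and 10.9% lower. With the totals behind the deposited RPKM 7 were higher and 1 lower, where 45.2% of all genes were called higher and 2.94% lower. The interferon-inducible Parp14, Parp12, Parp10 and Parp9 were lower in the high library, Parp14 at 98.6 and 256 CPM (2.59-fold, interval 2.53 to 2.66) and Parp12 at 39.6 and 111 CPM (2.81-fold, 2.71 to 2.91). With the RPKM totals the log2 ratio of Parp14 was -0.37, that of Parp12 -0.49 and that of Parp10 -0.22, and none of the 3 was called. The Parp10 call was also lost with unscaled totals (-0.94) and when scaled on Epcam, Krt8 and Krt18 (-0.91). Parp9, at 70.7 and 156 CPM with a log2 ratio of -1.14, was not called with these 3 scalings, DESeq2 size factors (-1.03) or TMM over all genes (-1.02). Art4, which carries the Dombrock blood group, was 15.6-fold lower, with 561 and 2902 reads, where erythroid (60.3 and 2141 CPM) and endothelial (62.1 and 434 CPM) markers were lower in sum as well, and their part was not tested. Art2a and Art2b, transferases known from the T cell surface, were 4.02-fold and 5.53-fold higher, Art2b passing the minimum by its level in the high library (0.591 CPM in the low one). Reads of these near-identical copies can be shared, so their values are uncertain, and Art2a was listed as a noncoding transcript. Parp4, of the vault particle, was 2.14-fold higher (2.05 to 2.23), a call lost with reference gene scaling (log2 ratio of 0.86). Parp1, the main nuclear consumer of NAD after DNA damage, was at 63.1 and 47.6 CPM.

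**Figure D4:**
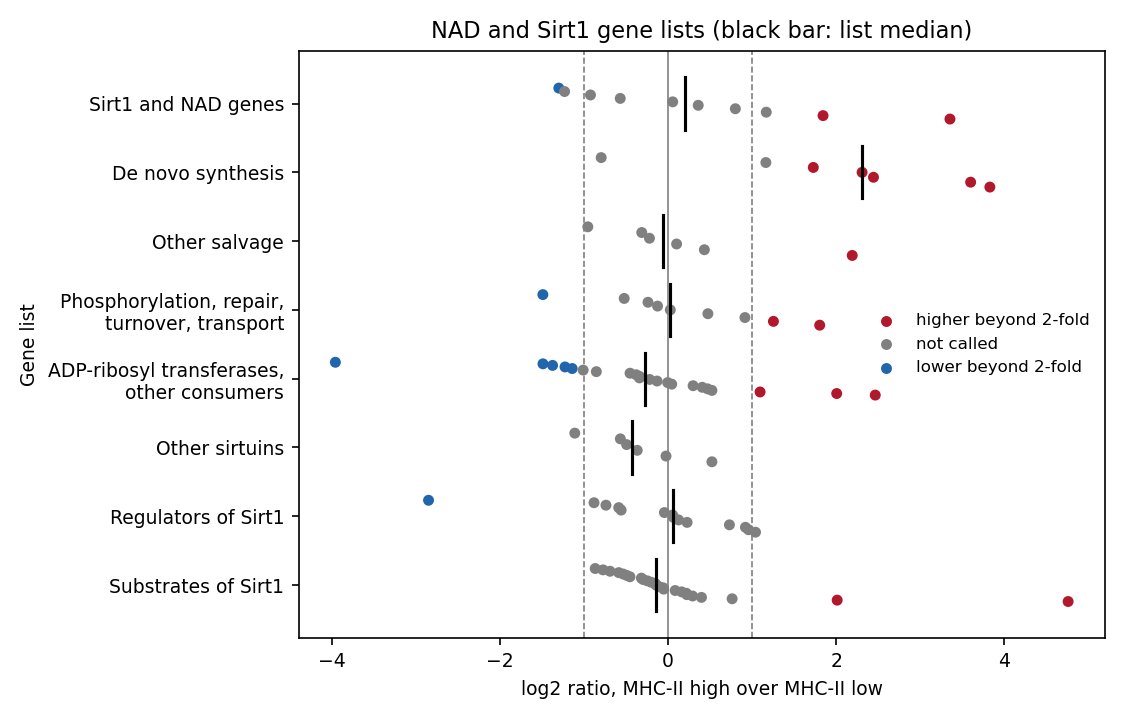
Log2 ratio, high library over low library (horizontal), for genes past the minimum in 8 lists (vertical), with red for genes called higher, blue for genes called lower, grey for genes not called and a black bar at each list's median. The list of de novo synthesis has its median at 2.31, and the medians of the other 7 lists lie between -0.43 and 0.21.

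None of the 6 other sirtuin genes was called, with a median of -0.43, where 14.5% of all genes were called higher and 10.9% lower. Beside Sirt1 at 845 CPM in the high library, Sirt7 was at 40.7, Sirt2 at 34.3 and Sirt4 at 15.0 CPM, and in the low library they were at 52.5, 48.3 and 10.4 CPM. With the totals behind the deposited RPKM the negative log2 ratios of Sirt2 and Sirt7 turned positive and Sirt4 was called higher (1.52). Sirt3, at 8.13 and 17.5 CPM, had a log2 ratio of -1.11 and was called lower with reference gene scaling (-1.34) and with the transcript of fewest reads (-1.14).

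Of 14 regulators of Sirt1, 0 were called higher and 1 lower, against 14.5% and 10.9% of all genes, with a median of 0.06. The count of 0 depended on the scaling, being 1 with DESeq2 size factors and with TMM over all genes. It was 2 with unscaled totals, 3 when scaled on Epcam, Krt8 and Krt18 and 8 with the totals behind the deposited RPKM. The shares of all genes called higher with these 5 scalings were, in that order, 16.4%, 16.4%, 19.8%, 20.4% and 45.2%. Senp1, a SUMO protease, was the regulator called higher under all 5 of these scalings, and was at 77.8 and 40.0 CPM. The lower gene was Hic1, a repressor known to act on the Sirt1 promoter, with 721 reads (4.72 CPM) in MHC-II high and 1729 (34.1 CPM) in MHC-II low mTEC, a log2 ratio of -2.85 that lay between -3.09 and -1.85 over the alternatives. Fibroblast markers were lower in the high library too (190 and 1088 CPM in sum), and their part in the level of Hic1 was not tested. Ctbp1, the corepressor that joins Hic1, was at 114 and 171 CPM, Usp22, a deubiquitinase that stabilises Sirt1, at 101 and 92.9 CPM, and Elavl1, which binds the Sirt1 messenger RNA, at 90.9 and 93.7 CPM. Their log2 ratios were -0.59, 0.12 and -0.04, and each changed sign with at least 1 scaling. Ccar2, whose protein inhibits Sirt1 by binding it, was at 73.4 and 70.7 CPM (ratio 1.04). With the RPKM totals Usp22 and Ccar2 were called higher (log2 ratios of 1.13 and 1.06).

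Of 25 genes for substrates of Sirt1, 2 were called higher and 0 lower, against 14.5% and 10.9% of all genes, with a median of -0.14. With unscaled totals and when scaled on Epcam, Krt8 and Krt18, 3 were called higher. With the totals behind the deposited RPKM 8 were, Trp53 among them. The shares of all genes called higher with these 3 scalings were 19.8%, 20.4% and 45.2%. The 2 genes called higher with TMM totals, Aire and Ppargc1a, were each read from a transcript listed as noncoding. Aire was at 571 and 21.0 CPM. Ppargc1a, the coactivator of mitochondrial genes, was at 16.7 and 4.14 CPM, a ratio of 4.04 (interval 3.50 to 4.67). Stat3 and Hif1a were abundant and not called, with 561 and 331 CPM and with 260 and 445 CPM, though Stat3 was called higher with these 3 scalings. The log2 ratio of Hif1a was -0.78 and turned to 0.23 with the RPKM totals. Among textbook substrates, Trp53 was at 94.5 and 77.2 CPM and Foxo3 at 28.5 and 30.8 CPM.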

How the data were processed

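Poly-A RNA of sorted MHC-II high and MHC-II low mTEC was sequenced, 1 library per group. Per the submitters' processing notes, build mm9, CASAVA, Bowtie 1.0.0 and bedtools were used. How they were set and which annotation served is not given in the sources used here. The authors deposited, per the file headers, a read count, a length and an RPKM value for each RefSeq transcript, and isoforms each hold the reads they share. The read totals behind the RPKM values (213854095 high, 142330178 low) were worked out from count, length and RPKM. The libraries were not directional, per the labels' protocols.

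Stray lines (18 and 36) were left out and genomic copies summed. Of 29920 accessions, 29800 were used. Symbols came from RefSeq GRCm38.p6 (29233) and GENCODE vM21 (173), a later build than mm9, used for names, gene order and promoters. CPM used TMM totals (edgeR 4.0.16, R 4.3.3; 152834162 and 50769784) computed over the genes whose mean CPM reached 1. The plan could also be read as TMM over all genes, which is given as an alternative. Intervals used SciPy 1.17.1. They were tested on Poisson counts simulated with the same library totals. That checks the computation only, since the simulation held no PCR copies, replicate spread or scaling error.

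The named genes were the 10 members, 3 genes per other list by reads with up to 6 called, the 5 nearest to Sirt1 and neighbours of called members, of which those of Nmnat2 and Nmnat3 are not reported here. Members and lists were chosen with earlier results of these data known. Nnt, Polr2a, Cd68 and Ly6g were not analysed here. Haao, Acmsd, Afmid, Parp1, Parp4, Parp9, Ccar2, Senp1, Sirt3, Trp53, Foxo3 and the pairs of genes set in ratio, apart from those with Sirt1, were picked after their values were seen. Settings changed were the scaling, the minimum, the transcript and the threshold, with 12 alternatives and 1 added after seeing the data.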

Additional observations from a re-analysis of the deposited data

How the results depend on the processing

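Under 12 alternatives and TMM over all genes, which was added after seeing the data, Sirt1 and Nmnat2 were called higher in each, Sirt1 with log2 ratios of 3.12 to 4.36. The log2 ratios of Sirt1 relative to each NAD gene do not depend on scaling and stayed beyond 2-fold with the other transcripts, and the one for Nmnat2 (1.51) was no longer called at a 3-fold threshold. Relative to TMM, the median of all genes moved by 0.29 with unscaled totals, 0.11 with DESeq2 size factors, 0.12 with TMM over all genes, 1.003 with the RPKM totals, -0.23 with reference genes and 0.32 with Epcam, Krt8 and Krt18.

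Members called higher, 2 in the report, were 4 with unscaled totals, with Epcam, Krt8 and Krt18 and at 1.5-fold. They were 5 with the RPKM totals and 3 with TMM over all genes, where Qprt was added. The shares of all genes called higher were 19.8% with unscaled totals, 20.4% with Epcam, Krt8 and Krt18 and 22.8% at 1.5-fold. With the RPKM totals the share was 45.2%, and with TMM over all genes 16.4%, against 14.5% in the report. Members called lower, 1 in the report, were 0 with unscaled totals, the RPKM totals, Epcam, Krt8 and Krt18 and at 3-fold. They were 2 with reference genes and 3 at 1.5-fold. The shares of all genes called lower in the first 4 settings were 7.35%, 2.94%, 7.07% and 5.24%. With reference genes the share was 15.9%, and at 1.5-fold 20.4%, against 10.9% in the report. Genes called higher, 2530 in the report, were 7232 with the RPKM totals, 1652 at a minimum of 5 CPM, 3973 at 1.5-fold and 1397 at 3-fold. Genes called lower, 1907 in the report, were 471 with the RPKM totals, 1233 with Epcam, Krt8 and Krt18, 3822 with no minimum, 3562 at 1.5-fold and 914 at 3-fold. Genes of the other NAD and Sirt1 lists called higher, 13 in the report, were 36 with the RPKM totals, where 45.2% of all genes were. Those called lower, 7 in the report, were 2 with the RPKM totals, 17 at 1.5-fold and 2 at 3-fold. The shares of all genes called lower in these 3 settings were 2.94%, 20.4% and 5.24%.

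Log2 ratios that changed sign with the RPKM totals were those of Nadsyn1 (0.43), Nnmt (0.0786), Ctbp1 (0.42), Elavl1 (0.96), Hif1a (0.23), Naprt (0.0468), Pnp (0.69), Sirt2 (0.51), Sirt7 (0.63), Slc25a17 (0.76) and Tiparp (0.87). With unscaled totals Elavl1 (0.24), Slc25a17 (0.0477) and Tiparp (0.16) changed sign, and with Epcam, Krt8 and Krt18 Elavl1 (0.27), Pnp (0.0039), Slc25a17 (0.0781) and Tiparp (0.186). With reference genes Nmnat1 (-0.18), Nadk (-0.21) and Usp22 (-0.11) did, and Elavl1 alone with DESeq2 size factors (0.0699) and TMM over all genes (0.0742). No paired analysis was possible because each group has 1 library. The low library has fewer reads, so intervals of genes such as Qprt, with 116 reads there, are limited by its depth. The high library had 138368550 reads over genes beside a total of 213854095 behind its RPKM values. The low library had 56077464 beside 142330178, a smaller part. The RPKM totals therefore shift all ratios upward, and why the parts differ was not tested.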

Other observations

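The tables list 2 Sirt1 transcripts, and the longer one has 114 more bases. It held 849 more reads than the shorter one in the MHC-II high and 46 more in the MHC-II low library, which is 7.45 and 0.404 reads per extra base. Over the whole longer transcript there were 33.0 and 1.07 reads per base. The isoforms share all other reads, and their log2 ratios were 3.36 each. No cause of the lower coverage of the extra bases was tested.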
